A study of Mus musculus with 8 samples.

Results

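The genes described here are those of BAX, BAK and the BH3-only proteins, the proapoptotic arm of the BCL-2 family. Members were chosen by symbol in the deposited gene table, *Bax*, *Bak1*, *Bok*, *Bid*, *Bcl2l11*, *Bbc3*, *Bad*, *Pmaip1*, *Bmf* and *Bik*, and each symbol matched 1 gene, which gives 10 of 54532 genes. BAX and BAK form pores in the outer mitochondrial membrane, through which cytochrome c leaves to start caspase activation, and BOK is a related protein of the same fold. BH3-only proteins sense damage, growth factor loss or other stress and either activate the pore formers directly or occupy the prosurvival proteins that restrain them. In the blood system the balance between these arms is known to set how readily stem and progenitor cells die after cytokine withdrawal or DNA damage.

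The RNA-Seq libraries number 4 for *Zeb1-/- EpCAM+* and 4 for *Zeb1-/- EpCAM-* hematopoietic stem and progenitor cells (HSPCs), sorted from mouse bone marrow through the LSK gate (no lineage markers, SCA-1 and C-KIT present). The mice had a C57BL/6 background, were 8 to 12 weeks old, and carried floxed alleles of *Zeb1*, an E-box binding transcription factor, together with *Mx1-Cre*. Polyinosinic-polycytidylic acid (pIpC) was given to all of them to switch on Cre, and cells were sorted 14 days after its last dose. The fractions differ in surface EpCAM, and both carry the same deletion and the same treatment. *Mx1-Cre* answers to interferon, is active outside blood cells too, and needs pIpC, which itself induces interferon. No library from control mice was compared here, so differences between fractions cannot be read as effects of the deletion.

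Each *Zeb1-/- EpCAM+* library held between 15225714 and 17073546 counted reads and each *Zeb1-/- EpCAM-* library between 14114491 and 15929923 (p = 0.114, two-sided exact permutation over 4 against 4 libraries, and p = 0.25 by exact permutation within the 4 numbered pairs). At least 1 read was found for 19992 to 20310 genes in the first fraction and for 18286 to 18746 in the second (p = 0.0286 by the same exact permutation, which cannot give a smaller p with 4 libraries a side, and p = 0.125 within pairs, the smallest that 4 pairs allow). The number of genes with a read was higher in the *Zeb1-/- EpCAM+* library of 4 of 4 pairs. Levels are given as CPM, read counts relative to library sizes scaled by edgeR's TMM method. Log2 fold changes give *Zeb1-/- EpCAM+* over *Zeb1-/- EpCAM-*, and a gene was called when edgeR (quasi-likelihood) gave it a Benjamini-Hochberg adjusted p under 0.05 over the 13560 genes with enough reads to test. *Epcam*, the gene of the sorting marker, read 234, 161, 171 and 183 CPM in *Zeb1-/- EpCAM+* replicates 1 to 4 and 8.99, 3.77, 1.43 and 1.25 CPM in *Zeb1-/- EpCAM-* replicates 1 to 4, so each library matched its sort label. *Zeb1* read 14.8 to 23.7 CPM in *Zeb1-/- EpCAM+* and 9.49 to 14.0 CPM in *Zeb1-/- EpCAM-* libraries. Reads of a deleted and an intact *Zeb1* allele are summed in such counts, so these values do not check the deletion.

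Of the 10 members, 8 had enough reads to be tested, and *Bmf* and *Bik* did not. Among the 8, 1 (*Bok*) was called higher and 2 (*Bax* and *Bid*) were called lower in *Zeb1-/- EpCAM+* HSPCs, and 5 were not called. Of all genes tested, 42.6% were called, 21.8% higher and 20.8% lower, so 3 calls among 8 members lie near what the whole table gives. The 4 values of one fraction lay above the 4 of the other for the same 3 members, where this held for 40.1% of all genes tested. With library totals *Bbc3* was separate too, which makes 4 members against 38.4% of all genes. The median log2 fold change was -0.15 over the 8 tested members and 0.021 over all tested genes. The balance of calls depended on the scaling, with 2961 genes higher and 2818 lower under TMM, 3642 and 2083 under upper-quartile scaling, and 3476 and 2066 with library totals alone. The directions of *Bax*, *Bid* and *Bok* were the same under each of these scalings. In bulk libraries such as these, fewer cells of a type and less RNA per cell cannot be told apart.

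**Figure D1:**
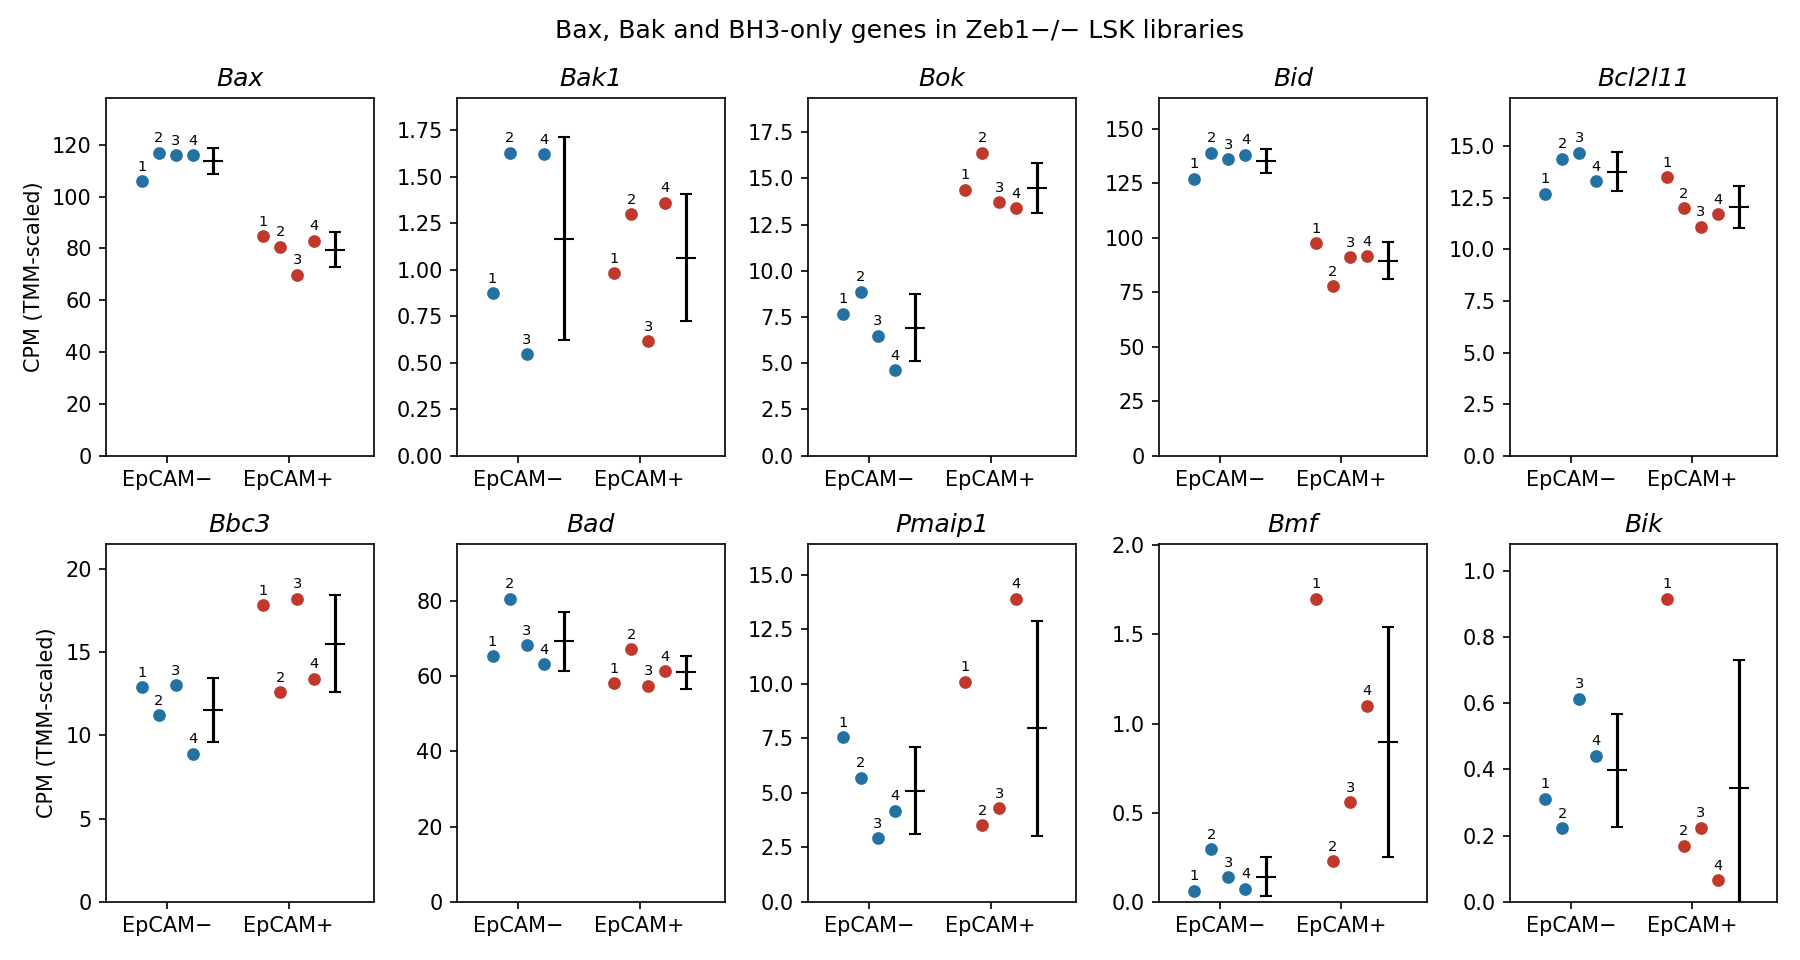
TMM-scaled CPM of each member in each library, with replicate numbers beside the points. Blue points are *Zeb1-/- EpCAM-* and red points *Zeb1-/- EpCAM+* libraries, and black bars give mean and SD (n = 4). *Bax* and *Bid* were lower in all 4 *Zeb1-/- EpCAM+* libraries and *Bok* was higher in all 4, while on this scale the fractions overlapped for the 7 other members.

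Among the pore formers, *Bax* (ENSMUSG00000003873, chromosome 7 of GRCm38.p6, 45461697 to 45466898, minus strand) gave 84.7, 80.7, 69.9 and 82.9 CPM in *Zeb1-/- EpCAM+* replicates 1 to 4. In *Zeb1-/- EpCAM-* replicates 1 to 4 the *Bax* level was 106, 117, 116 and 116 CPM. The fractions did not overlap, and the spread within each was small beside the gap between them. Means were 79.5 ± 6.65 and 114 ± 5.07 CPM (SD, n = 4 per fraction). The log2 fold change of *Bax* was -0.52 (standard error 0.077, 95% interval -0.69 to -0.35, adjusted p = 0.00074 from edgeR), lower in 4 of 4 numbered pairs. A test against a change of 1.5-fold left *Bax* uncalled (adjusted p = 1), so the data do not place the decrease beyond that size. The annotation shares 12.2% of the exonic bases of *Bax* with *Gm45808*, which had 0 to 1 counts, and how shared reads were assigned is not given in the sources used here. *Bax* and *Bid* are among the genes that the study displayed as proapoptotic on these same libraries, so their direction here is not independent evidence.

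*Bok* (ENSMUSG00000026278, chromosome 1, 93685660 to 93695764, plus strand), whose product can permeabilize the outer membrane without the activators that BAX and BAK need, read 14.4, 16.4, 13.7 and 13.4 CPM in *Zeb1-/- EpCAM+* replicates 1 to 4. The *Zeb1-/- EpCAM-* replicates 1 to 4 had 7.68, 8.88, 6.48 and 4.63 CPM of *Bok*. Every *Zeb1-/- EpCAM+* library was above every *Zeb1-/- EpCAM-* library, and the *Zeb1-/- EpCAM-* values were the more scattered, with replicate 4 the lowest. On the log2 scale *Bok* was higher by 1.07 (standard error 0.19, 95% interval 0.65 to 1.48, adjusted p = 0.00163 from the same edgeR test), which is 2.10-fold. It was the member whose call also held against a change of 1.5-fold (adjusted p = 0.0395), and within the numbered pairs the log2 difference ran from 0.88 to 1.51.

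*Bak1*, the gene of BAK, was close to the lower limit of what could be tested. It had 15, 23, 11 and 21 counts in *Zeb1-/- EpCAM+* replicates 1 to 4 and 14, 22, 8 and 22 counts in *Zeb1-/- EpCAM-* replicates 1 to 4. The fractions overlapped almost fully, and same-numbered libraries had similar counts. The log2 fold change was -0.12 with a 95% interval from -1.03 to 0.78, wide enough to hold a 1.5-fold change either way. The annotation gives part of the exonic bases of *Bak1* (25.5%) to another gene as well, *Ggnbp1*, which had 17 to 49 counts. Reads of overlapping genes cannot be told apart by strand in libraries of this kind, and how shared reads were assigned is not given in the sources used here, so the *Bak1* counts are uncertain.

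The make-up of the pore former transcripts was uneven. Counted per length, *Bax* made up 84.4% to 87.0% of the summed level of *Bax*, *Bak1* and *Bok* in *Zeb1-/- EpCAM+* libraries and 93.1% to 95.9% in *Zeb1-/- EpCAM-* libraries. The *Bok* share was 12.1% to 14.7% in the first and 3.27% to 6.07% in the second, with no overlap. The summed pore former level was 62.0, 60.7, 52.1 and 60.5 CPM per kb in *Zeb1-/- EpCAM+* replicates 1 to 4 and 71.9, 79.4, 77.6 and 76.9 CPM per kb in *Zeb1-/- EpCAM-* replicates 1 to 4. The sum was thus lower in each *Zeb1-/- EpCAM+* library, with *Bax* supplying most of it.

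*Bid* (ENSMUSG00000004446, chromosome 6, 120891930 to 120916853, minus strand) encodes the activator that caspase-8 cleaves, which links death receptors to mitochondria. Its levels were 97.4, 77.6, 91.1 and 91.6 CPM in *Zeb1-/- EpCAM+* replicates 1 to 4. In *Zeb1-/- EpCAM-* replicates 1 to 4 *Bid* read 127, 139, 136 and 138 CPM. The fractions were separate, with *Zeb1-/- EpCAM+* replicate 2 the lowest of the 8 libraries. Means were 89.4 ± 8.38 and 135 ± 5.65 CPM (SD, n = 4 per fraction), and the log2 fold change was -0.59 (standard error 0.079, 95% interval -0.77 to -0.42, adjusted p = 0.000466 from edgeR), lower in 4 of 4 pairs. Against a change of 1.5-fold *Bid* was not called (adjusted p = 0.861). The annotation shares 17.7% of its exonic bases with *Bcl2l13*, which was itself called lower, so the *Bid* value may include reads that cannot be assigned to 1 of these genes.

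*Bcl2l11* encodes BIM, the activator that responds to cytokine withdrawal in blood cells. It had 13.5, 12, 11.1 and 11.7 CPM in *Zeb1-/- EpCAM+* replicates 1 to 4 and 12.7, 14.4, 14.7 and 13.3 CPM in *Zeb1-/- EpCAM-* replicates 1 to 4. *Zeb1-/- EpCAM+* replicate 1 lay within the *Zeb1-/- EpCAM-* range and the 3 other *Zeb1-/- EpCAM+* libraries lay below it. The log2 fold change was -0.19 (95% interval -0.45 to 0.059, adjusted p = 0.192 from edgeR), so a decrease of that size was not separated from replicate spread. Counts per gene do not separate the splice forms of BIM.

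*Bbc3*, the gene of PUMA and a known p53 target, read 17.8, 12.6, 18.2 and 13.4 CPM in *Zeb1-/- EpCAM+* replicates 1 to 4. The *Zeb1-/- EpCAM-* replicates 1 to 4 had 12.9, 11.2, 13.0 and 8.90 CPM. Replicates 1 and 3 were high in the first fraction, and replicate 2 of that fraction fell inside the range of the other. The log2 fold change of *Bbc3* was 0.43 (standard error 0.17, 95% interval 0.052 to 0.81) with an adjusted p of 0.0646 from edgeR, which missed the threshold. With the replicate number as a block the same difference of 0.43 was called (adjusted p = 0.0136), *Bbc3* being higher in the *Zeb1-/- EpCAM+* library of 4 of 4 pairs by 0.17 to 0.58. It was also called with upper-quartile scaling (0.51, adjusted p = 0.0335), with library totals (0.51, adjusted p = 0.042) and without *Zeb1-/- EpCAM+* replicate 2 (0.52, adjusted p = 0.0411). In the 7 other fits with 1 library left out it was not called, with values down to 0.32 and an adjusted p up to 0.177, nor was it without *Zeb1-/- EpCAM+* replicates 1 and 4 (0.41, adjusted p = 0.176). Over 10 other ways of testing, scaling and filtering its adjusted p ran from 0.0136 to 1, the last from the test against 1.5-fold.

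The sensitizer *Bad*, whose product is held inactive by phosphorylation and 14-3-3 proteins, gave 58.1, 67.1, 57.4 and 61.2 CPM in *Zeb1-/- EpCAM+* replicates 1 to 4 and 65.2, 80.5, 68.1 and 63.1 CPM in *Zeb1-/- EpCAM-* replicates 1 to 4. Replicate 2 was the highest of its fraction in both, and the fractions overlapped. For *Bad* the log2 fold change was -0.18 (95% interval -0.39 to 0.021, adjusted p = 0.132 from edgeR). With the replicate block it was again -0.18, now with an adjusted p of 0.0457, and the *Zeb1-/- EpCAM+* library was the lower of each pair, by 0.045 to 0.26 on the log2 scale. Over the same 10 alternatives the adjusted p of *Bad* ran from 0.0457 to 1. In GENCODE M21 *Bad* shares 20.5% of its exonic bases with *Gpr137*, but its gene model there (2558 exonic bases) is not the one counted (2007), so the share in the counted model is not known.

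*Pmaip1*, the gene of NOXA, which binds MCL-1 and responds to p53 and to interferon signaling, had 155, 62, 77 and 214 counts in *Zeb1-/- EpCAM+* replicates 1 to 4 and 121, 77, 43 and 57 counts in *Zeb1-/- EpCAM-* replicates 1 to 4. These are 10.1, 3.52, 4.30 and 13.9 CPM against 7.55, 5.70, 2.93 and 4.19 CPM. *Zeb1-/- EpCAM+* replicates 1 and 4 stood above all *Zeb1-/- EpCAM-* libraries, while replicates 2 and 3 lay among them. The log2 fold change of 0.63 had a 95% interval from -0.35 to 1.61 (adjusted p = 0.269 from edgeR). Without replicates 1 and 4 of *Zeb1-/- EpCAM+*, a choice made after seeing the data, the log2 fold change was -0.39 (adjusted p = 0.453), a fit of *Zeb1-/- EpCAM+* replicates 2 and 3 against all 4 *Zeb1-/- EpCAM-* libraries. Within the numbered pairs *Pmaip1* was higher in the *Zeb1-/- EpCAM+* library of 3 of 4, by 0.42, 0.53 and 1.7 in pairs 1, 3 and 4, and lower in pair 2 (-0.68).

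*Bmf*, a sensitizer tied to the cytoskeleton, had 26, 4, 10 and 17 counts in *Zeb1-/- EpCAM+* replicates 1 to 4 and 1, 4, 2 and 1 in *Zeb1-/- EpCAM-* replicates 1 to 4. The same *Zeb1-/- EpCAM+* replicates 1 and 4 were highest, and replicate 2 was no higher than 1 *Zeb1-/- EpCAM-* library. The sums were 57 and 8 counts, and *Bmf* did not pass the filter. When the filter was lowered to 1 count in any library, *Bmf* was called higher (log2 fold change 2.59, adjusted p = 0.016 from edgeR), as it was with DESeq2 (2.65, adjusted p = 0.00875). Both sizes rest on the 8 counts of the *Zeb1-/- EpCAM-* libraries.

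*Bik*, a sensitizer of the endoplasmic reticulum, had 14, 3, 4 and 1 counts in *Zeb1-/- EpCAM+* replicates 1 to 4 and 5, 3, 9 and 6 counts in *Zeb1-/- EpCAM-* replicates 1 to 4. *Zeb1-/- EpCAM+* replicate 1 was the highest of the 8 libraries and replicate 4 of the same fraction the lowest. *Bik* was not called with DESeq2 (-0.25, adjusted p = 0.858) or with the lowered filter in edgeR (-0.24, adjusted p = 0.828). A floor of 3 counts corresponds to 0.168 to 0.222 CPM per library, and *Bik* was at or under 3 counts in 3 of the 8 libraries. Such floors and counts cover counting error only, as reads without molecular identifiers are not independent molecules.

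**Figure D2:**
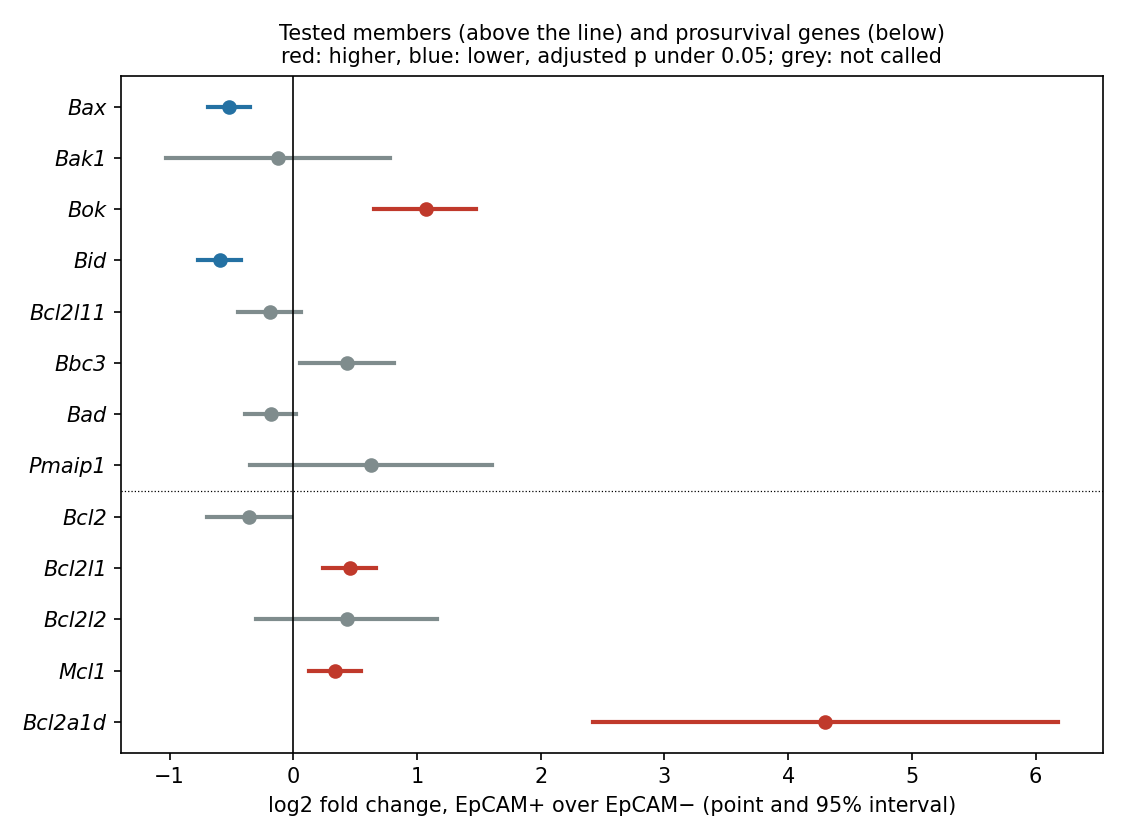
Log2 fold change of *Zeb1-/- EpCAM+* over *Zeb1-/- EpCAM-* with its 95% interval from edgeR, for the 8 tested members above the dotted line and the 5 tested prosurvival genes below it. Red marks genes called higher, blue genes called lower and grey genes that were not called. The intervals of *Bax* (-0.69 to -0.35) and *Bid* (-0.77 to -0.42) lie below 0 and that of *Bok* (0.65 to 1.48) lies above it.

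Levels of different genes were compared as CPM per kb of the gene length in the table. In *Zeb1-/- EpCAM+* libraries the order was *Bax* (50.5 ± 4.22 CPM per kb), *Bad* (30.4 ± 2.21), *Bid* (25.2 ± 2.36), *Bok* (7.89 ± 0.736), *Bbc3* (7.30 ± 1.39), *Pmaip1* (3.01 ± 1.86), *Bcl2l11* (1.5 ± 0.131), *Bak1* (0.443 ± 0.143), *Bik* (0.216 ± 0.243) and *Bmf* (0.171 ± 0.123; SD, n = 4 throughout). In this fraction *Bok* exceeded *Bbc3* in 2 of 4 libraries, and *Pmaip1* exceeded *Bcl2l11* in 3 of 4, so these neighbours did not differ beyond their spread, and the same held for *Bak1*, *Bik* and *Bmf*. In *Zeb1-/- EpCAM-* libraries *Bax* led again (72.2 ± 3.22 CPM per kb), and *Bid* (38.0 ± 1.59) and *Bad* (34.5 ± 3.89) followed with overlapping values. *Bbc3* (5.41 ± 0.905) came before *Bok* (3.76 ± 0.984) in that fraction, the reverse of their order by mean in *Zeb1-/- EpCAM+* libraries, and *Bmf* was last at 0.0271 ± 0.0205. The gap between *Bad* and the next gene was 6.37-fold in *Zeb1-/- EpCAM-* libraries, and that between *Bid* and *Bok* 3.19-fold in *Zeb1-/- EpCAM+* libraries, so *Bax*, *Bid* and *Bad* formed the high group in both. The authors' FPKM rest on other gene lengths, from 1.00 to 3.80 times shorter for the members, and with them *Bid* came before *Bad*, *Bbc3* before *Bok* (17.7 against 17.1 FPKM in *Zeb1-/- EpCAM+* libraries) and *Bcl2l11* before *Pmaip1* in both fractions, so the change of order between *Bok* and *Bbc3* was not seen on that scale.

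**Figure D3:**
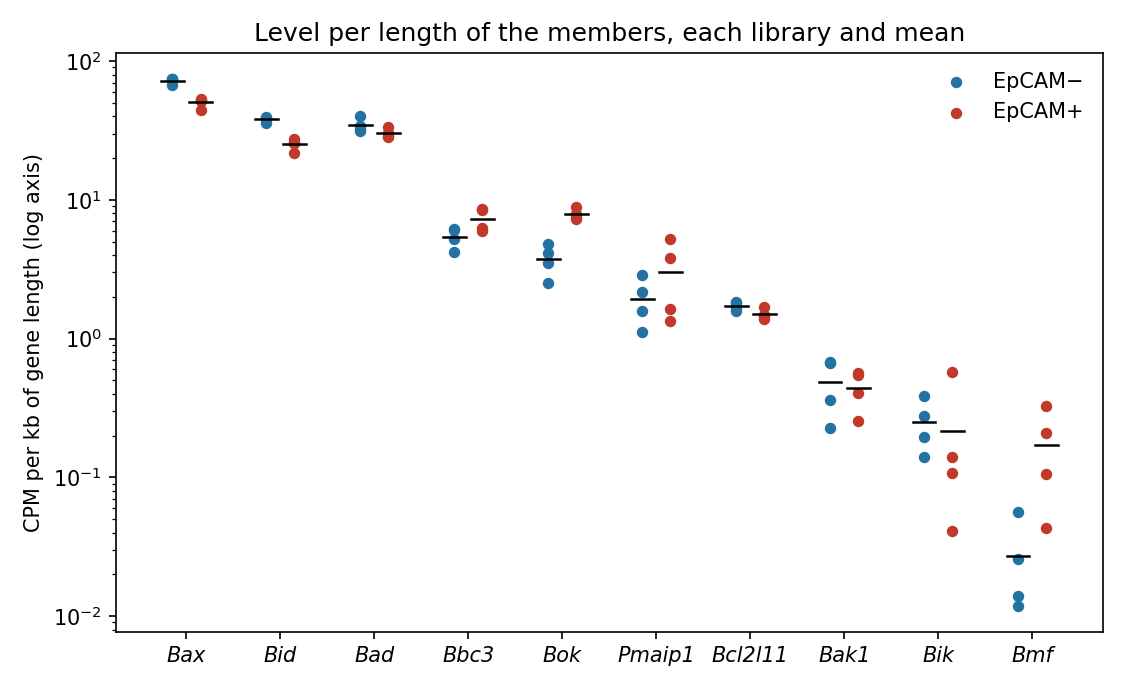
Level per length of the 10 members on a log axis, as CPM per kb of gene length, with 1 point per library and a bar at the mean of each fraction. *Bax*, *Bid* and *Bad* lie above 20 CPM per kb in all libraries, and *Bak1*, *Bik* and *Bmf* lie below 1.

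The prosurvival proteins bind the BH3 domains of the members above. Of 8 listed prosurvival genes 5 were tested. Of these, 3 were called higher by edgeR and none lower, where 21.8% of all tested genes were called higher. *Bcl2a1d*, 1 of the 3, passed the filter through its *Zeb1-/- EpCAM+* counts, so it could enter only as a higher gene. The median of the 5 was 0.43 on the log2 scale, the value of the uncalled *Bcl2l2*, against 0.021 over all tested genes. In the fit without *Zeb1-/- EpCAM+* replicates 1 and 4 the median of these 5 genes was 0.19, with 2 called higher. *Mcl1*, the partner of NOXA and BIM, read 204 ± 27.8 CPM in *Zeb1-/- EpCAM+* and 161 ± 3.22 CPM in *Zeb1-/- EpCAM-* libraries (SD, n = 4), a log2 fold change of 0.34 (adjusted p = 0.016 from edgeR). It was not called without *Zeb1-/- EpCAM+* replicates 1 and 4 (0.19, adjusted p = 0.191). *Bcl2l1*, which encodes BCL-XL, was higher by 0.46 on the log2 scale (adjusted p = 0.00401), and *Bcl2* had a log2 fold change of -0.36 that was not called (adjusted p = 0.0828), although it was called lower with DESeq2, without *Zeb1-/- EpCAM+* replicate 4 and without *Zeb1-/- EpCAM-* replicate 4. *Bcl2l2* had 15 to 45 counts in each library and was not called (adjusted p = 0.312). *Bcl2a1d*, an A1 gene, had 143, 12, 70 and 196 counts in *Zeb1-/- EpCAM+* replicates 1 to 4 against 3, 3, 10 and 3 in *Zeb1-/- EpCAM-* replicates 1 to 4, and was called higher (log2 fold change 4.30, adjusted p = 0.00293). *Bcl2a1d* was at 2.77 on the log2 scale without *Zeb1-/- EpCAM+* replicates 1 and 4 (adjusted p = 0.0243). *Bcl2a1a* had 6, 1, 4 and 30 counts in *Zeb1-/- EpCAM+* replicates 1 to 4 and 0 in each *Zeb1-/- EpCAM-* library, *Bcl2a1b* had at most 8 counts in any library, and *Bcl2l10* had none. The A1 genes are near-identical copies between which reads can be split, so their single values are uncertain. Per length, *Mcl1* was at 59.6 ± 8.13 CPM per kb in *Zeb1-/- EpCAM+* libraries, *Bcl2* at 6.70 ± 1.15 and *Bcl2l1* at 6.04 ± 0.374. On this scale *Mcl1* was near *Bax* (50.5) in that fraction and below it in *Zeb1-/- EpCAM-* libraries (47.0 ± 0.943 against 72.2 ± 3.22). The order rests on the gene lengths of the deposited table. The prosurvival genes were not placed on the authors' FPKM scale, which rests on other lengths.

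Partners and regulators of the members were read from lists. Of 4 genes for outer membrane proteins that bind BAX, BAK or BID, 3 were called lower and none higher: *Vdac1* (log2 fold change -0.66, adjusted p = 0.000542 from edgeR), *Vdac2* (-0.50, adjusted p = 0.000653), whose channel protein holds BAK and BAX at the membrane, and *Mtch2* (-0.38, adjusted p = 0.00659), the receptor of truncated BID. *Mtch2* was not called without *Zeb1-/- EpCAM+* replicates 1 and 4 (-0.35, adjusted p = 0.0509). Among 7 tested BH3-related relatives, 2 were higher and 2 lower, with *Bcl2l14* at 1.08, *Bcl2l13* at -0.80 and *Becn1*, an autophagy gene, at -0.28. The other higher gene, *Bnip3* (0.28), named after its values were seen, was not called without *Zeb1-/- EpCAM+* replicate 1, *Zeb1-/- EpCAM+* replicate 4, *Zeb1-/- EpCAM-* replicate 3 or *Zeb1-/- EpCAM-* replicate 4 (adjusted p up to 0.0831). Nor was *Bnip3* called when the filter was lowered to 1 count in any library (0.27, adjusted p = 0.0788 from edgeR). Without *Zeb1-/- EpCAM+* replicates 1 and 4 together neither *Bnip3* nor *Bcl2l14* was called (0.22 and 0.57, adjusted p = 0.221 and 0.119). Of 11 apoptosome genes and genes of proteins released from mitochondria, 5 were lower and 2 higher, with a median of -0.21. *Htra2* (-0.95, adjusted p = 0.000349 from edgeR) and *Cycs*, the gene of cytochrome c (-0.62, adjusted p = 0.000715), were lower. Further called genes, named after their values were seen, were *Aifm1* (-0.47) and *Endog* (-1.09), both lower, and *Casp6* (0.48) and *Xiap* (0.44), both higher. *Xiap* was not called without *Zeb1-/- EpCAM+* replicates 1 and 4 (0.38, adjusted p = 0.103). BID is cut by the products of *Casp8* and *Gzmb*, of which *Gzmb* was lower (-3.27, adjusted p = 0.00033) and had 15 to 19 counts in *Zeb1-/- EpCAM+* libraries.

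BAD, BIM and BMF are also controlled after translation. Of the 2 dynein light chain genes that hold BIM and BMF, 0 were called by edgeR, by DESeq2 or by limma, and 0 had an unadjusted edgeR p under 0.05, with *Dynll2* the smaller (0.17, adjusted p = 0.311). With the replicate block *Dynll1*, named after its values were seen, was called lower (-0.21, adjusted p = 0.00912). Of 7 genes for 14-3-3 proteins, *Sfn* was called higher (3.26, adjusted p = 0.000888) and none lower by edgeR, while the replicate block called 2 higher and 2 lower. The added genes, named after their values were seen, were *Ywhab* (0.15, adjusted p = 0.034), *Ywhae* (-0.18, adjusted p = 0.0175) and *Ywhag* (-0.20, adjusted p = 0.0262). *Ywhab* was also called higher under upper-quartile scaling, with library totals and with 10 counts required in each library, and *Ywhae* lower with DESeq2. The *Sfn* count was highest in *Zeb1-/- EpCAM+* replicate 1, with 349 counts against 100 to 118 in the 3 other libraries of that fraction. With 1 library left out the log2 fold change of *Sfn* ran from 2.56 to 3.47. It was 2.45 without *Zeb1-/- EpCAM+* replicates 1 and 4 (adjusted p = 0.00219 from edgeR). Of 10 genes for kinases that phosphorylate BAD, 3 were higher, among them *Pim1* (1.09) and *Pim2* (1.02), and 1 was lower, *Pim3* (-0.34), named after its values were seen. *Pim3* was not called under upper-quartile scaling, with library totals, or without *Zeb1-/- EpCAM+* replicate 2, *Zeb1-/- EpCAM+* replicate 4 or *Zeb1-/- EpCAM-* replicate 3 (adjusted p up to 0.0833), nor without *Zeb1-/- EpCAM+* replicates 1 and 4 together (-0.34, adjusted p = 0.11), where 2 of the 10 genes were higher. Among 6 genes for BIM phosphorylation and turnover, *Mapk9* was called lower (-0.49, adjusted p = 0.0156).

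Transcription factors known to drive member genes had 1 of 7 tested genes called higher and 2 lower. *Foxo3*, named after its values were seen, missed the threshold (0.38, adjusted p = 0.0513 from edgeR). It was called higher with the replicate block (0.37, adjusted p = 0.0167), under upper-quartile scaling (0.47), with library totals (0.46), with 10 counts required in each library (0.41), among protein-coding genes alone (0.38), without *Zeb1-/- EpCAM+* replicate 4 (0.48, adjusted p = 0.0166) and without *Zeb1-/- EpCAM-* replicate 1 (0.43, adjusted p = 0.0458), which makes 2 higher in each of these fits. *Foxo1*, a driver of *Bcl2l11* and *Bbc3*, was higher (0.66, adjusted p = 0.00784 from edgeR), *Trp53* was lower (-0.41, adjusted p = 0.00792) and *Myc* was lower (-0.40, adjusted p = 0.0265). The call of *Myc* was lost under upper-quartile scaling, with library totals, and without *Zeb1-/- EpCAM+* replicate 1, *Zeb1-/- EpCAM-* replicate 3 or *Zeb1-/- EpCAM-* replicate 4 (adjusted p up to 0.0777), and *Trp73* had no counts. Neither *Trp53* nor *Myc* was called without *Zeb1-/- EpCAM+* replicates 1 and 4 (-0.40 and -0.29, adjusted p = 0.0525 and 0.136). Of 12 tested p53 targets outside the BCL-2 family, 4 were lower and 2 higher, and their median was 0.053 on the log2 scale. *Aen* (-0.51) and *Ccng1* (-0.37) were lower and *Tnfrsf10b*, a death receptor gene, was higher (0.96). The call of *Tnfrsf10b* was lost without *Zeb1-/- EpCAM+* replicate 1, *Zeb1-/- EpCAM+* replicate 2 or *Zeb1-/- EpCAM-* replicate 3 (adjusted p up to 0.058). Of the other called targets, named after their values were seen, *Cdkn1a* (-1) and *Phlda3* (-0.87) were lower and *Trp53inp1* (0.89) was higher. Each of these 3 lost its call without 1 library, *Cdkn1a* without *Zeb1-/- EpCAM+* replicate 1 or *Zeb1-/- EpCAM-* replicate 2 (adjusted p up to 0.0729), *Phlda3* without *Zeb1-/- EpCAM+* replicate 4, *Zeb1-/- EpCAM-* replicate 2 or *Zeb1-/- EpCAM-* replicate 3 (up to 0.0593), and *Trp53inp1* without *Zeb1-/- EpCAM+* replicate 1, *Zeb1-/- EpCAM+* replicate 2, *Zeb1-/- EpCAM-* replicate 3 or *Zeb1-/- EpCAM-* replicate 4 (up to 0.0778). Without *Zeb1-/- EpCAM+* replicates 1 and 4, in a fit with fewer libraries, 2 targets were called lower, *Aen* and *Ccng1*, and 0 higher by edgeR. The values of *Tnfrsf10b* (0.99), *Trp53inp1* (0.87) and *Cdkn1a* (-1.1) in that fit were close to those with all libraries, and the median was 0.048. *Sesn1*, named after its values were seen, was not called (0.22, adjusted p = 0.0619 from edgeR), but was called higher with the replicate block (0.23, adjusted p = 0.0449), under upper-quartile scaling (0.31), with library totals (0.30), with 10 counts required in each library (0.25), and without *Zeb1-/- EpCAM-* replicate 1 or *Zeb1-/- EpCAM-* replicate 2 (0.26 in both).

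Windows upstream of the members' transcription starts were taken from RefSeq (GRCm38.p6), with 14 windows of 8 members. *Pmaip1* and *Bik* were not among them. The 250 bases before each start were searched on both strands for the E-box CAGGTG to which ZEB1 binds, for the FOXO site GTAAACA, for an interferon element (GAAA, any 2 bases, GAAA) and for the p53 decamer. Of all 32851 windows in the table, 17.2% held the E-box, 3.17% the FOXO site, 2.98% the interferon element and 7.13% the p53 decamer. The windows of the 3 called members are shown because these members moved, and 1 window of *Bbc3* because it holds the E-box on each strand and the FOXO site. Capitals mark motif matches, and all sequences run 5′ to 3′ on the strand of the gene.
Bax, chr7:45466899-45467148, minus strand: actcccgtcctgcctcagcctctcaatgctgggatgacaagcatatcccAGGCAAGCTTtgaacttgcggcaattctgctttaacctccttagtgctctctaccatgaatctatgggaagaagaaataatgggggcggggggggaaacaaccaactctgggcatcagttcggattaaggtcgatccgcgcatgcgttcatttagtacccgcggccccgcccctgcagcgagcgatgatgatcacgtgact
Bid, chr6:120916825-120917074, minus strand: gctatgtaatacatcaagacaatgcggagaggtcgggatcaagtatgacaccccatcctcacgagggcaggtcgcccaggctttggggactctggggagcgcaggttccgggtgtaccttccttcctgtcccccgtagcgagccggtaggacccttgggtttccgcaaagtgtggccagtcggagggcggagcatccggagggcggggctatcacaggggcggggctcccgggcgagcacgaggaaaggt
Bok, chr1:93685325-93685574, plus strand: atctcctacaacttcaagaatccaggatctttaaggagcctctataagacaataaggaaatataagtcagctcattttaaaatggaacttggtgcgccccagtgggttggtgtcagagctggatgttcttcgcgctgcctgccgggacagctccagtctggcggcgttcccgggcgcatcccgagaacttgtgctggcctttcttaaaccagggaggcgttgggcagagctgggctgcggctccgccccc
Bbc3, chr7:16310011-16310260, plus strand: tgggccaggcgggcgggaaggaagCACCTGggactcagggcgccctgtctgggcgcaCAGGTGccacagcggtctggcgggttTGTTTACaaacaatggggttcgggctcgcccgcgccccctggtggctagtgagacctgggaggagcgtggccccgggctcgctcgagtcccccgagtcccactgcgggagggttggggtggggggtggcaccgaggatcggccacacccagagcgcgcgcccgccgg
The *Bax* window held 1 match to the p53 decamer, from 201 to 192 bases before the start, and none of the 3 other motifs. No match to the 4 motifs was in the *Bid* or *Bok* window. The *Bbc3* window held the E-box at 226 to 221 and at 193 to 188 bases and the FOXO site at 167 to 161 bases before the start. Elsewhere among the members, 1 window of *Bcl2l11* held the FOXO site, 1 of *Bad* the E-box and 1 of *Bmf* the p53 decamer. A match is a description of these letters and not a binding site, and no match says only that the letters are not in that window.

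Other gene groups differed between the fractions beside the members. Of 10 genes that mark the LSK gate 9 were called higher and none lower, with *Cd34* the most abundant but not called (0.28, adjusted p = 0.104 from edgeR) and summed levels of 2674, 2463, 2843 and 2460.2 CPM in *Zeb1-/- EpCAM+* replicates 1 to 4 and 1821, 1631, 1405 and 1190.3 CPM in *Zeb1-/- EpCAM-* replicates 1 to 4. Neutrophil markers had 5 of 10 tested genes lower and none higher, and *Mpo*, the most abundant, was among the lower ones (log2 fold change -3.74). Their sums were 1098, 1269, 1154 and 1853 CPM in *Zeb1-/- EpCAM+* replicates 1 to 4 and 18565, 13662, 15369 and 11943 CPM in *Zeb1-/- EpCAM-* replicates 1 to 4. Erythroid markers had 6 of 9 lower and 1 higher, *Car1* being the most abundant. The sums of the erythroid list were 105, 96.2, 136 and 291 CPM in *Zeb1-/- EpCAM+* and 2030.1, 2296, 5086 and 6893 CPM in *Zeb1-/- EpCAM-* replicates 1 to 4. Mast cell and basophil markers had 4 of 7 lower. The most abundant gene of that list, *Gata2*, was not among them (log2 fold change 0.28, adjusted p = 0.096 from edgeR), and the sums were 268, 289, 296 and 291 CPM in *Zeb1-/- EpCAM+* and 453, 488, 752 and 579 CPM in *Zeb1-/- EpCAM-* replicates 1 to 4. No gene of these 4 lists was at 0 counts throughout. The lower *Bax* and *Bid* and the higher *Bok* stood beside these differences in marker lists, and their part in the result was not tested.

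Proliferation genes had 11 of 14 lower and none higher, the median being -0.38 on the log2 scale, and *Rrm2* (-0.71), *Mcm5* (-0.42) and *Aurka* (-0.51) had the smallest adjusted p (0.000808 to 0.00198). With library totals 7 of the 14 were lower and under upper-quartile scaling 8, while the replicate block called 12 lower, adding *Pcna* (-0.17, adjusted p = 0.0405), named after its values were seen. Without *Zeb1-/- EpCAM+* replicates 1 and 4, in a fit with fewer libraries, 7 were called lower, while 14 of 14 had a negative value and the median was -0.37. Interferon-stimulated genes had 10 of 11 higher and none lower, with a median of 1.09, among them *Irf7* (1.67), *Oasl2* (1.34) and *Mx1* (4.22). *Mx1* had 77, 21, 19 and 55 counts in *Zeb1-/- EpCAM+* and 4, 0, 4 and 0 counts in *Zeb1-/- EpCAM-* replicates 1 to 4, so its value rests on few *Zeb1-/- EpCAM-* counts, and it was 2.96 without *Zeb1-/- EpCAM+* replicates 1 and 4. In the fit without *Zeb1-/- EpCAM+* replicates 1 and 4, which has fewer libraries, 5 were called higher, while 11 of 11 had a positive value and the median was 0.96. With the replicate block 11 of 11 were called higher, the added gene being *Oas1a* (0.40, adjusted p = 0.0109), named after its values were seen. The summed level of the listed interferon-stimulated genes was 323, 237, 230.3 and 237 CPM in *Zeb1-/- EpCAM+* replicates 1 to 4 and 169, 136, 114 and 104 CPM in *Zeb1-/- EpCAM-* replicates 1 to 4. The part of either group in the values of the members was not tested.

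Conventional dendritic cell markers moved with *Pmaip1*, *Bmf* and *Bcl2a1d* across the *Zeb1-/- EpCAM+* libraries. Of 8 tested genes of that list 7 were called higher and none lower, with *H2-Ab1* the most abundant and no gene at 0 throughout. The sums were 5028, 688, 1555 and 5218 CPM in *Zeb1-/- EpCAM+* replicates 1 to 4 and 394, 362, 276 and 274 CPM in *Zeb1-/- EpCAM-* replicates 1 to 4, so replicates 1 and 4 were again the high ones. Plasma cell markers had 3 of 5 higher, with *Jchain* the most abundant and sums of 3978, 453, 674 and 389 CPM in *Zeb1-/- EpCAM+* replicates 1 to 4 and 257, 259, 245 and 171 CPM in *Zeb1-/- EpCAM-* replicates 1 to 4. *Jchain* alone read 3525, 221, 429 and 199 CPM in *Zeb1-/- EpCAM+* and 0.25, 0, 0.273 and 0 CPM in *Zeb1-/- EpCAM-* replicates 1 to 4. The *Zeb1-/- EpCAM-* sums were mostly *Xbp1*, named after its values were seen, with 245, 249, 239 and 167 CPM, which was not called (0.082, adjusted p = 0.767 from edgeR). The part of the dendritic and plasma cell markers in the *Pmaip1* and *Bmf* values was not tested. *Bax*, *Bid* and *Bok* were called in the same directions without *Zeb1-/- EpCAM+* replicates 1 and 4, with log2 fold changes of -0.60, -0.68 and 1.12 (adjusted p = 0.00453, 0.00295 and 0.0114 from edgeR).

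Of 9 listed T cell markers 2 were tested, both called higher, and the rest had too few reads to test. The sums were 54.9, 57.1, 67.7 and 59.5 CPM in *Zeb1-/- EpCAM+* and 27.2, 29.5, 20.1 and 17.4 CPM in *Zeb1-/- EpCAM-* replicates 1 to 4. Most of each sum was *Lck*, the most abundant, with 50.3, 53.9, 62.7 and 54.5 CPM in *Zeb1-/- EpCAM+* and 24.9, 27.5, 19 and 16.3 CPM in *Zeb1-/- EpCAM-* replicates 1 to 4. B cell markers had 2 of 4 higher, with *Pax5* at 0 counts, and *Cd79b*, the most abundant, was not called (0.30, adjusted p = 0.12 from edgeR). Their sums were 122, 77.9, 72.3 and 85.9 CPM in *Zeb1-/- EpCAM+* and 55.7, 79.7, 52.9 and 46.9 CPM in *Zeb1-/- EpCAM-* replicates 1 to 4, which overlap. No natural killer cell marker could be tested, and *Klrd1* was the most abundant of them at no more than 53 counts. The sums of that list were 4.45, 1.19, 1.29 and 6.81 CPM in *Zeb1-/- EpCAM+* and 1.37, 0.666, 0.546 and 1.40 CPM in *Zeb1-/- EpCAM-* replicates 1 to 4, again highest in *Zeb1-/- EpCAM+* replicates 1 and 4. Plasmacytoid dendritic cell markers had 2 higher and 1 lower of 5, with *Klk1* at 0 counts, and *Bst2*, the most abundant, was not called (-0.022, adjusted p = 0.864 from edgeR). They summed to 287, 216, 236 and 219.7 CPM in *Zeb1-/- EpCAM+* and 217, 245, 200 and 176 CPM in *Zeb1-/- EpCAM-* replicates 1 to 4. Monocyte and macrophage markers had 1 higher and 2 lower of 8, with *Lyz2* the most abundant and called higher (0.68) and sums of 955, 640.2, 699 and 868 CPM in *Zeb1-/- EpCAM+* and 1274, 611, 754 and 514 CPM in *Zeb1-/- EpCAM-* replicates 1 to 4. The fractions overlapped in both of these sums. Megakaryocyte markers had 2 of 7 higher, with *Gp6* at 0 counts and sums of 403, 461, 648 and 608 CPM in *Zeb1-/- EpCAM+* and 328, 127, 331 and 356 CPM in *Zeb1-/- EpCAM-* replicates 1 to 4. *Flt3* is among both the LSK gate genes and the conventional dendritic cell markers. The part of these markers in the values of the members was not tested.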

How the data were processed

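RNA-Seq counts of 8 libraries were used. The authors amplified RNA with SMART-Seq v4, aligned reads to GRCm38.p6 with STAR 2.6.1d and counted reads per gene with featureCounts 1.5.0-p3, per the labels and the study's methods. The deposited read counts are whole numbers without normalization, and all tests here used them. The deposited FPKM values, which the authors computed from gene length and counts, served only as a second scale for levels. The table's 15 columns of the authors' own comparisons (DESeq2 fold changes and p-values) were not used.

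Genes were filtered with edgeR's filterByExpr, TMM-scaled, and tested two-sided by quasi-likelihood in edgeR 4.0.16 under R 4.3.3, and Benjamini-Hochberg p-values were adjusted over all 13560 tested genes. Alternatives used DESeq2 1.42.0 and limma 3.58.1. A gene can pass the filter through 1 fraction alone, and such a gene could hardly be called in the other direction. Standard errors came from the F statistic and intervals are 95%. CPM used TMM-scaled library sizes. Figures were drawn with matplotlib 3.10.9. The procedure was tested on simulated data. Overlaps of exons were read from GENCODE M21, in which 8 of the 10 members had the coordinates of the table.

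The members, 13 lists of related genes and 12 lists of cell type markers were chosen with earlier results of these data known. Named from each list were up to 3 called genes with the smallest adjusted p (if none was called, the gene with the smallest p), all prosurvival genes, and for markers the most abundant gene and those at 0 counts. Not every gene that this rule takes is printed. *Ddit3* names 2 genes of the deposited file, of which the longer gene model was used.

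The replicate numbers pair the samples. After subtracting each fraction's mean, same-numbered libraries correlated at 0.205 to 0.356 (4 pairs, across genes, which are not independent replicates), while the 12 pairs of different numbers gave -0.216 to 0.0396. What the numbers share is not given in the sources used here, although the labels name 4 mice. No 2 libraries of a fraction were duplicates (chi-square per degree of freedom 10.6 to 101 over 12 pairs).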

Additional observations from a re-analysis of the deposited data

Results flagged for a closer look

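Within each fraction, the gap of the highest or lowest library to its neighbour was divided by the range of the 4 libraries, for the CPM of each member, the summed CPM of each gene list and the total counts. Of 72 such groups of 4 libraries 5 stood out, where chance alone gives about 1 in 20. *Zeb1-/- EpCAM-* replicate 1 had a *Bax* level of 106 CPM, below the 116 to 117 CPM of the other *Zeb1-/- EpCAM-* libraries and above every *Zeb1-/- EpCAM+* library. *Zeb1-/- EpCAM+* replicate 1 had 323 CPM of interferon-stimulated genes, against 230 to 237 CPM in the other libraries of the fraction. The same library had 3978 CPM of plasma cell markers, where the others had 389 to 674 CPM, and *Zeb1-/- EpCAM-* replicate 4 had 171 CPM of these markers, below 245 to 259 CPM in the rest of its fraction. Of these 171 CPM, 167 were *Xbp1*, which read 239 to 249 CPM in the other *Zeb1-/- EpCAM-* libraries, while *Jchain* was at 0 and *Mzb1* at 0.441 CPM. *Zeb1-/- EpCAM-* replicate 2 had 127 CPM of megakaryocyte markers, against 328 to 356 CPM in the others.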

How the results depend on the processing

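*Bax* and *Bid* were called lower under each of the alternative tests, scalings and filters, with the replicate block and with each library left out, except when a change of 1.5-fold was tested, where their adjusted p was 1 and 0.861. Their log2 fold changes ran from -0.54 to -0.43 and from -0.62 to -0.51 over the alternative settings and from -0.56 to -0.46 and from -0.64 to -0.53 with 1 library left out. *Bok* was called higher in all of these fits, with 1.05 to 1.15 and, with 1 library left out, 0.91 to 1.2.

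The number of members called higher was 2 in place of 1 with DESeq2 and with the lower filter (*Bmf*), and 2 with upper-quartile scaling and with library totals (*Bbc3*). With 1 library left out it was 1 to 2. Over all genes, 3280 of 17800 were called higher with DESeq2 and 2990 of 25237 with the lower filter, fits that also tested *Bmf* and *Bik*. Upper-quartile scaling called 3642 of 13560 genes higher, library totals 3476 of 13560, and the fits with 1 library left out 2391 to 3089 genes. Pairing the libraries by a replicate block gave 2 members higher (*Bok* and *Bbc3*) and 3 lower (*Bax*, *Bid* and *Bad*), and changed no other member's call, where 50.3% of all tested genes were called with that block (25.6% higher and 24.7% lower). The test against 1.5-fold left 866 genes higher and 339 lower, and 0 members lower, which follows from its stricter hypothesis. Without *Zeb1-/- EpCAM+* replicates 1 and 4, chosen after seeing the data, 1819 genes were higher and 1856 lower in a fit with fewer libraries, and 1 member was higher and 2 were lower. Members whose fractions did not overlap numbered 3 to 5 with 1 library left out, 4 without *Zeb1-/- EpCAM+* replicate 1 and 5 without *Zeb1-/- EpCAM+* replicate 2. Separation is easier with fewer libraries, and over all tested genes it held for 44% and 44.8% in these 2 fits, against 40.1% with all libraries.

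The sign of *Bak1*, never called, changed in 3 of the fits with 1 library left out (range -0.37 to 0.071), and that of *Pmaip1* without *Zeb1-/- EpCAM+* replicates 1 and 4 (-0.39). The cause was not tested. *Bak1*, *Bmf* and *Bik* were limited by depth, with at most 26 counts in any library.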
